A study of Mus musculus with 3 samples.

Results

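Aminoacyl-tRNA synthetases, the enzymes that load amino acids onto tRNA, were examined in RNA of 4T1 cancer stem cell spheroids (CSCsp). The members were taken by gene symbol from a fixed list of 19 cytosolic and 16 mitochondrial enzymes, 35 of the 24402 gene symbols in the files. All 35 symbols were found, and 34 reached 1 FPKM (fragments scaled by transcript length and library size) in at least 1 library. The exception was Ears2, the mitochondrial enzyme for glutamate, which stayed under 1 FPKM in all 3 libraries. In all, 11323 symbols reached that level.

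The 4T1 line was derived from a mouse mammary tumor without hormone receptors (strain label Balb c/J), and its CSCsp were grown for 7 days without attachment in serum-free medium with EGF, FGF and heparin, then kept on a 40 μm strainer. There was 1 library per condition, and the question was how CSCsp respond to immune cells. The library labelled R came from CSCsp co-cultured with tumor antigen primed splenocytes whose activation had been reinforced with anti-CD3/CD28 beads and IL2, the library labelled P from CSCsp co-cultured with primed splenocytes without that step, and the library labelled N from CSCsp without co-culture. Splenocytes were taken from female mice, injected at 8 weeks of age, after 28 days with a 4T1 tumor in the mammary fat pad, and were washed through a strainer before RNA was taken. By the methods, equal amounts of RNA from independent experiments were multiplexed for sequencing, but each condition has 1 library here, so no difference below has a replicate check, an SD or a p-value.

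In each tRNA charging reaction the enzyme activates an amino acid with ATP and transfers it to the matching tRNA, which then delivers it to the ribosome. Mammalian cells keep separate nuclear genes for most of the cytosolic and mitochondrial enzymes, and the mitochondrial ones end in 2. Several cytosolic enzymes are held together in a multi-synthetase complex, and a number of the cytosolic genes are known targets of ATF4, the transcription factor of the amino acid response. Gars and Kars serve both compartments from 1 gene, and are counted here with the cytosolic enzymes.

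The libraries labelled R, P and N held about 19178982, 17887652 and 17894139 fragments. All 8 epithelial markers of 4T1 cells reached 1 FPKM in every library, at 18.7 to 779 FPKM. Of 33 leukocyte markers in the files, 8, 1 and 7 reached 1 FPKM in the libraries labelled R, P and N, 7, 18 and 7 were at 0, and their summed levels were 59.97, 15.1 and 65.97 FPKM. The pan-leukocyte marker Ptprc had 0.31, 0 and 0.20 FPKM, no T cell or B cell marker reached 1 FPKM in any library, and the 3 NK cell markers were at 0. By its label the library N never met splenocytes, yet it carried more leukocyte RNA than the library labelled P, which did. By these markers it is in doubt which of these libraries is N and which is P, and libraries are named by their labels throughout. Because RNA was taken from whole spheroids, fewer cells of a type and less RNA per cell cannot be told apart. Single leukocyte markers ran either way between R and N. Mpeg1, a macrophage gene, had 24.5, 0.23 and 0.70 FPKM in the libraries labelled R, P and N. Lyz2, of macrophages and neutrophils, had 6.51, 0.31 and 28.9 FPKM. Mpeg1 in R and Lyz2 in N were the largest single parts of the summed levels. Lcp1, a pan-leukocyte marker, had 12.3, 12.1 and 12.4 FPKM and was most of the sum in P. The other macrophage and dendritic cell markers (Adgre1, Csf1r, Itgax and Flt3) stayed under 1 FPKM and were lower in R than in N. The part that other cells play in any difference was not tested.

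Most cytosolic synthetases had their highest level in the library labelled R, and the mitochondrial synthetases had medians closer to that of all genes. Ratios are written R/N, R/P and P/N, with the library on top named before the stroke. Of the 19 cytosolic genes, 18 had a positive log2 ratio for R/N and 18 for R/P, and Sars, the enzyme for serine, was the exception in both. Read from RefSeq transcripts alone, without those assembled from the reads, 18 of them were measured, with 14 above 0 for R/N and 16 for R/P. By the sum of both kinds, used from here on, the median log2 ratio of the cytosolic genes was 0.36 for R/N, against 0.087 for the 15 measured mitochondrial genes and 0.076 for all 11323 genes measured. For R/P the medians were 0.28 for cytosolic genes, 0.11 for mitochondrial genes and 0.029 for all genes. Of the 15 mitochondrial genes, 11 lay above 0 for R/N and 12 for R/P, where 60.2% and 53.9% of all genes did. Lars2, the enzyme for leucine, was below 0 in both by its whole transcript, but not without its last exon, as given below. Between the libraries labelled P and N, whose labels are in doubt, the medians were 0.022, -0.023 and 0.032. Both comparisons with R rest on the same single library. Log2 ratios are of FPKM plus 0.1, and ratios below are of FPKM itself with exact 95% intervals from fragments (Clopper-Pearson), which cover counting error only.

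The sizes were modest. At 1.5-fold or more, 5 of 19 cytosolic genes were higher for R/N and 0 lower, while 7.91% of all genes measured were higher and 4.52% lower. For R/P, 4 of 19 were higher and 0 lower, with 9.13% and 5.33% of all genes. With a pseudocount of 1 in place of 0.1 these counts were 3 and 2. For P/N, 0 of 19 passed in either direction, with 2.24% higher and 3.79% lower among all genes. Not 1 of the 34 members was 2-fold apart in any comparison, where 3.11% of all genes were 2-fold higher and 1.9% lower for R/N, 4.23% and 1.81% for R/P, and 0.53% and 1.7% for P/N. The intervals lay wholly above 1 for 16 of 19 cytosolic genes and wholly below 1 for 1 in each comparison with R, where 33.9% of all genes lay above and 19.6% below for R/N, and 30.7% and 24.4% for R/P. For P/N there were 4 above and 4 below, with 21.9% and 15.4% of all genes. Of the 15 mitochondrial genes, 4 intervals lay above 1 and 1 below for R/N, 5 and 1 for R/P, and 2 and 0 for P/N. Intervals are narrower for genes with more fragments, and the shares of all genes were not matched for fragments. Among all genes, 60.2% had a log2 ratio above 0 for R/N, 53.9% for R/P and 56.5% for P/N.

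Levels differed between the compartments far more than between the libraries. The cytosolic genes had a median of 31.3, 22.3 and 22.7 FPKM in the libraries labelled R, P and N, and they summed to 837, 668 and 677 FPKM. Mitochondrial genes had a median of 4.27, 3.66 and 3.68 FPKM. Lars, the cytosolic enzyme for leucine, was the lowest cytosolic gene in every library, and Ears2 the lowest mitochondrial one. The highest cytosolic gene was Kars, the enzyme for lysine, in the library labelled R, and Vars, the enzyme for valine, in the libraries labelled P and N.

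**Figure D1:**
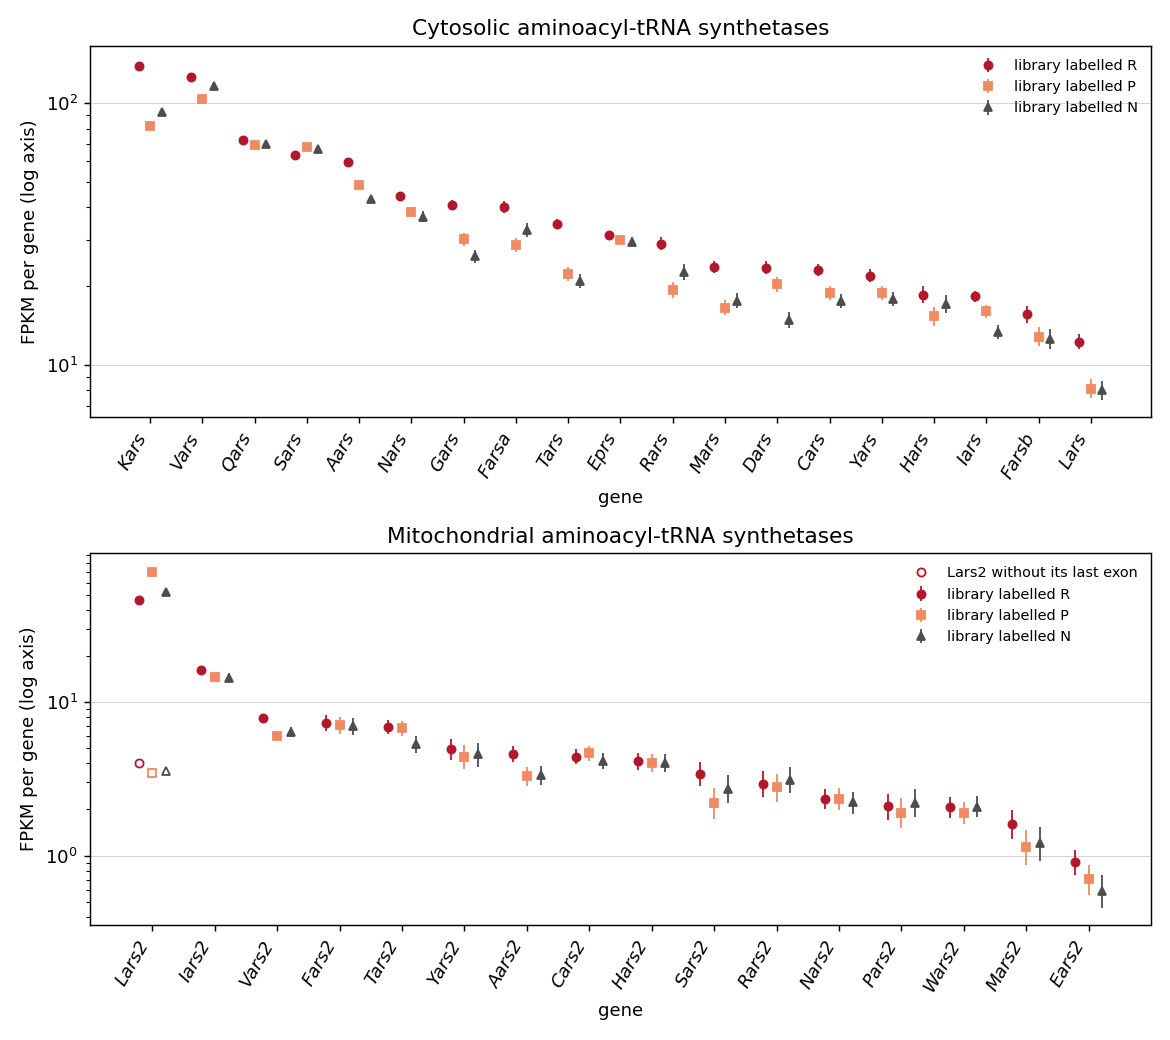
FPKM per gene (log axis) of each synthetase in the libraries labelled R, P and N, genes ordered by the level in R, with the cytosolic enzymes above and the mitochondrial enzymes below. Bars are exact 95% Poisson intervals for counting error only, and open symbols give Lars2 from all exons but its last. The points of R lie highest for 18 of 19 cytosolic genes, Sars being the exception, while most mitochondrial genes have overlapping bars.

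Tars, the enzyme for threonine, had the highest ratio for R/N. It had 34.6, 22.3 and 20.9 FPKM in the libraries labelled R, P and N, which is 1.66 times as much in R as in N (1.53 to 1.79) and 1.56 times as much as in P (1.44 to 1.68). The interval of its FPKM in R lay above those of both other libraries, which differed little from each other.

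Kars had 139, 81.9 and 92.6 FPKM in the libraries labelled R, P and N and was the member with the highest ratio for R/P, 1.70 (1.63 to 1.77). For R/N its ratio was 1.502 (1.44 to 1.57), just inside the 1.5-fold line. All 3 of its RefSeq transcripts were higher in R than in P. For P/N, as labelled, Kars was lower, at 0.885 (0.84 to 0.93).

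Gars, which charges glycine, had 40.8, 30.2 and 26.0 FPKM, a ratio of 1.57 for R/N (1.45 to 1.69) and 1.35 for R/P (1.26 to 1.45). Dars, which charges aspartate, had 23.6, 20.3 and 14.9 FPKM and ratios of 1.58 (1.44 to 1.74) and 1.16 (1.06 to 1.27). In both genes the library labelled P lay between the others, and for Dars it stood nearer to R. Dars had the highest ratio of all members for P/N, 1.37 (1.24 to 1.502).

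Lars had 12.3, 8.12 and 8.01 FPKM in the libraries labelled R, P and N. Its ratios were 1.53 for R/N (1.38 to 1.71) and 1.51 for R/P (1.36 to 1.68), and its intervals in P and N overlapped. Rars, the enzyme for arginine, had 29.1, 19.3 and 22.7 FPKM. It was 1.505 times as high in R as in P (1.37 to 1.65), just inside the line, and 1.28 times as high in R as in N (1.17 to 1.40). With Kars, Lars and Tars it made up the 4 cytosolic genes past 1.5-fold for R/P. As labelled, Rars had the lowest ratio of the cytosolic genes for P/N, 0.85 (0.77 to 0.94).

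Mars, which charges methionine on both initiator and elongator tRNA, had 23.7, 16.6 and 17.6 FPKM and ratios of 1.35 for R/N (1.24 to 1.47) and 1.43 for R/P (1.31 to 1.56). Farsa, the catalytic subunit for phenylalanine, had 40.1, 28.7 and 32.9 FPKM and ratios of 1.22 (1.13 to 1.32) and 1.40 (1.29 to 1.52). Farsb, the second subunit of the same enzyme, had 15.7, 12.9 and 12.6 FPKM and ratios of 1.24 (1.10 to 1.40) and 1.22 (1.08 to 1.37). Both subunits were thus higher in R, and the intervals of their ratios overlapped in each comparison.

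Aars, the enzyme for alanine, had 59.9, 48.6 and 43.2 FPKM, with ratios of 1.39 for R/N (1.33 to 1.45) and 1.23 for R/P (1.18 to 1.28). Iars, the enzyme for isoleucine, had 18.3, 16.02 and 13.4 FPKM, with ratios of 1.37 (1.27 to 1.48) and 1.14 (1.06 to 1.23). The order R, P, N also held for Cars, Nars and Yars, which charge cysteine, asparagine and tyrosine. Cars had 23.0, 18.9 and 17.6 FPKM, Nars 44.1, 38.5 and 36.9 FPKM, and Yars 22.0, 18.8 and 17.9 FPKM. Their ratios for R/N ran between 1.195 and 1.31, with every interval above 1, but those for P/N had intervals that included 1.

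A small set of cytosolic genes was much alike in the 3 libraries. Qars, the enzyme for glutamine, had 72.2, 69.4 and 70.1 FPKM, with ratios of 1.03 for R/N (0.98 to 1.08) and 1.04 for R/P (0.99 to 1.09). Eprs, a single protein that charges glutamate and proline, had 31.3, 30.1 and 29.6 FPKM and a ratio of 1.06 for R/N (1.00 to 1.12). Sars had 63.6, 68.1 and 67.0 FPKM, so that it was lower in R, at 0.95 of N (0.91 to 0.99) and 0.93 of P (0.90 to 0.97). Over these 3 genes and both comparisons the intervals of the ratios ran from 0.90 to 1.12.

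Vars and Hars stood between these groups. Vars had 125, 104 and 116 FPKM, and its ratio was 1.08 for R/N (1.05 to 1.11) and 1.20 for R/P (1.17 to 1.24). Hars, the enzyme for histidine, had 18.6, 15.4 and 17.1 FPKM, with ratios of 1.09 (0.97 to 1.21) and 1.21 (1.08 to 1.35). For Hars a difference between R and N was not detectable at this depth.

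**Figure D2:**
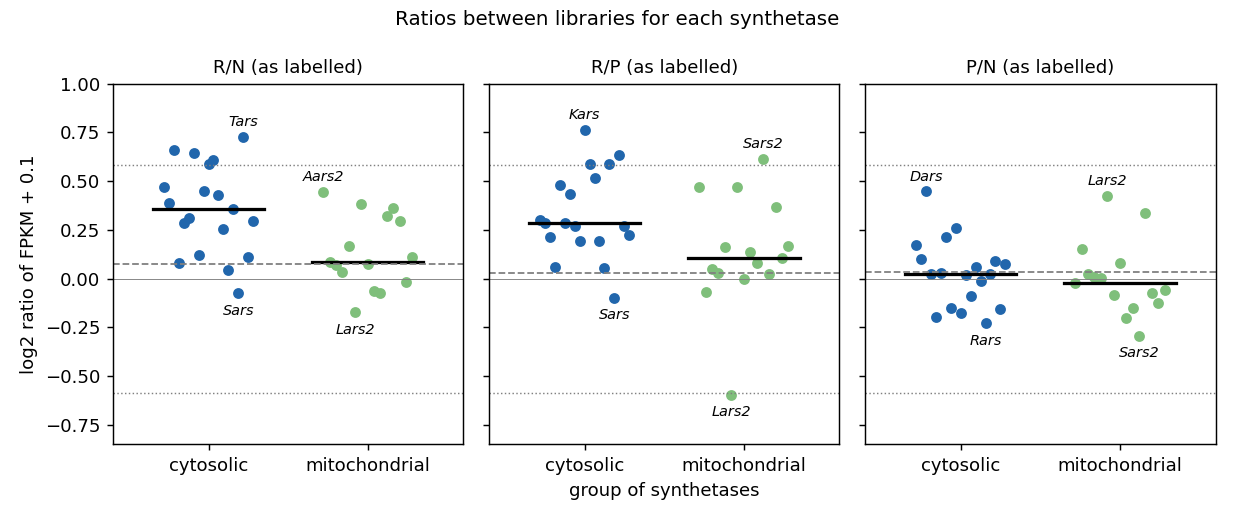
Log2 ratios of FPKM plus 0.1 for R/N, R/P and P/N, as labelled, with 1 point per measured synthetase, 19 cytosolic and 15 mitochondrial. Black lines are the medians of each group, dashed lines the median of all genes measured, and dotted lines mark 1.5-fold in either direction. The cytosolic medians are 0.36, 0.28 and 0.022, and in the comparisons with R they lie above the dashed line.

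The multi-synthetase complex joins 8 of the cytosolic enzymes (Dars, Eprs, Iars, Kars, Lars, Mars, Qars and Rars) to scaffold proteins. These 8 had a median log2 ratio of 0.44 for R/N and 0.36 for R/P, and the 11 cytosolic enzymes outside it 0.30 and 0.28. All 8 were above 0 in both comparisons, though Eprs and Qars only narrowly. Outside the complex 10 of the 11 were above 0 in each comparison. Among all genes 60.2% were for R/N and 53.9% for R/P. The scaffold genes, which are no synthetases, did not move as one. Aimp1 had 49.0, 53.3 and 54.9 FPKM, a ratio of 0.89 for R/N (0.82 to 0.97). Aimp2 had 15.8, 14.5 and 15.4 FPKM. Eef1e1, which encodes the scaffold also called AIMP3, had 16.3, 9.31 and 11.1 FPKM, with ratios of 1.46 for R/N (1.22 to 1.75) and 1.75 for R/P (1.45 to 2.11).

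Synthetases fall into class I and class II by the fold of the catalytic domain. The 8 cytosolic class I genes had medians of 0.37 for R/N and 0.28 for R/P, and the 10 class II genes 0.39 and 0.29, with Eprs left out because it holds a domain of each. The classes were thus alike among the cytosolic members.

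Of the cytosolic members, 10 are known targets of ATF4 (Aars, Cars, Eprs, Gars, Iars, Mars, Nars, Sars, Tars and Yars). Their median log2 ratio was 0.41 for R/N and 0.25 for R/P, against 0.31 and 0.28 for the other 9 cytosolic genes. The 2 sets differed more for P/N, as labelled. There 9 of the 10 ATF4 targets lay above 0, with a median of 0.082. Of the 9 other genes 3 did, with a median of -0.15. Among all genes 56.5% lay above 0. Of the targets only Aars, Gars and Iars had an interval of the ratio wholly above 1, and the intervals of the rest included 1. Of the other genes Dars lay wholly above 1, and Farsa, Kars, Rars and Vars wholly below.

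ATF4 with C/EBP partners binds an element whose core can be written TGATGNAA, or TTNCATCA on the other strand. Promoters of RefSeq (GRCm38.p6), 250 bases before to 50 after the start site, were available for 13 cytosolic and 14 mitochondrial members and were searched on both strands. The letters occurred in 5 of the 13 cytosolic promoters (38.5%), in 0 of the 14 mitochondrial ones and in 4.51% of 27025 genes. Of the 13 genes, 8 are on the ATF4 target list, and all 5 with the letters (Aars, Gars, Iars, Tars and Yars) are among these 8. Only 5 of the 9 other cytosolic genes could be searched, with 0 matches. The longer form TGATGCAAT occurred in Aars and Iars, against 0.222% of all genes. The windows below show those matches in capitals on the strand of the gene, because ratios are then compared between genes with and without them.
Aars, chr8:111033714-111033753, plus strand, first capital at base -112 from the start: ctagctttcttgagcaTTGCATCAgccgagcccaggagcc
Aars, chr8:111033835-111033864, plus strand, at base 9: ggcgtagcgggtcactTTTCATCAgagcgc
Gars, chr6:55037955-55037994, plus strand, at base -30: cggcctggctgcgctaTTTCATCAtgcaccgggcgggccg
Iars, chr13:49682121-49682150, plus strand, at base 7: cctggcactgtcagtaTTGCATCAcctcca
Tars, chr15:11399659-11399689, minus strand, at base -15: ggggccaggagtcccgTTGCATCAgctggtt
Yars, chr4:129189890-129189919, plus strand, at base 3: gagcgacgagctcagcTGATGCAAcccgac

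The match is a description of the letters and not of binding. The 5 genes with it had a median log2 ratio of 0.47 for R/N, from 0.30 in Yars to 0.73 in Tars, and the 8 cytosolic genes with a promoter entry and no match had 0.30, from -0.076 in Sars to 0.66 in Dars. The ranges of the groups thus overlapped widely. For R/P the medians were 0.30 and 0.25, and for P/N, as labelled, 0.17 and 0.0030. Kars, with the highest ratio for R/P, had no match in its window. For Aars the window lies at the RefSeq start, while most of its value lay on assembled transcripts that start further upstream.

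For 9 members part of the value lay on transcripts that StringTie had assembled from the reads, and here the choice of transcripts mattered. The RefSeq transcript of Gars was listed at 0 in all 3 libraries, and its FPKM lay on 2 assembled transcripts that start at chr6:55037992 and chr6:55037999, just before the RefSeq start at chr6:55038001. In the libraries labelled R and P the first of these held all of the value, and in N the second held 98.8%. Aars had 6.25, 4.66 and 4.19 FPKM on its RefSeq transcript, and 89.6% to 90.4% of its value on 7 assembled ones, of which 5 start between chr8:111029553 and chr8:111029822, before the RefSeq start at chr8:111033842. The sums over these transcripts are the values given above.

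For Dars, Qars, Cars, Hars, Cars2, Tars2 and Vars2 the division changed a comparison. By RefSeq transcripts alone Dars had a log2 ratio of 1.34 for R/N, against 0.66 by the sum, because the assembled share was 8.4% in R and 43.3% in N. Qars had -0.66 by RefSeq alone and 0.042 by the sum, with assembled shares of 38.7% in R and 0.54% in N. Cars had -0.10 by RefSeq alone and 0.39 by the sum. Hars had -0.12 and 0.12, with assembled shares of 15.8% in R and 0.86% in N. Qars, Cars and Hars, with Sars, made up the 4 cytosolic genes below 0 for R/N by RefSeq alone. Cars2, of which 88.0% to 95.7% lay on assembled transcripts, had a log2 ratio of 0.95 for R/P and -1.01 for P/N by RefSeq alone, against -0.067 and 0.15 by the sum, but its RefSeq level was under 1 FPKM in every library. Which transcripts are counted thus changes the size of these comparisons, and for Qars, Cars, Hars, Cars2 and Tars2 also the direction of some. A change in isoform for these genes was not tested.

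**Figure D3:**
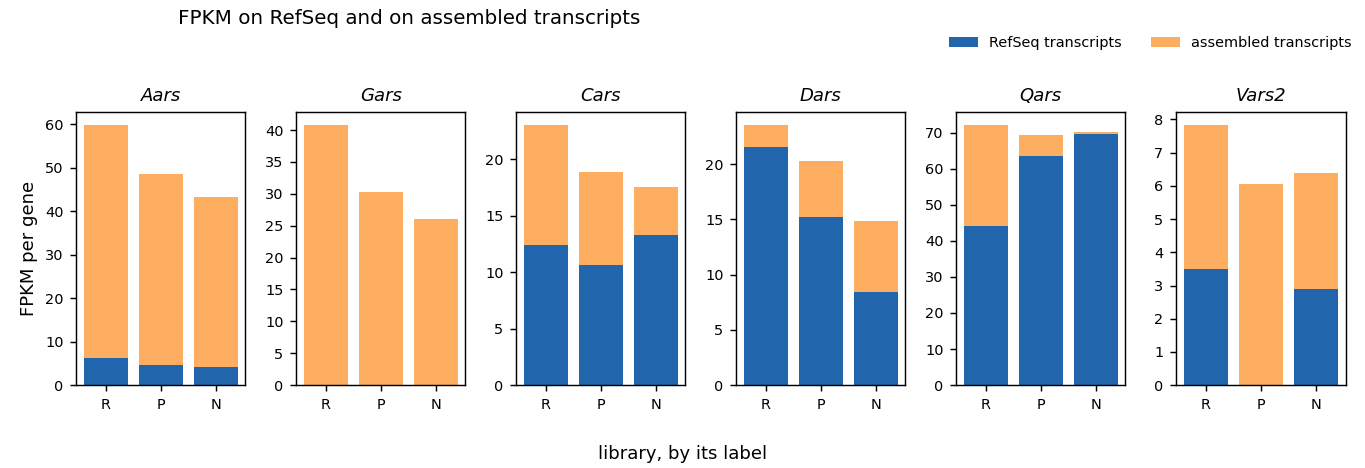
FPKM per gene on RefSeq transcripts (blue) and on transcripts assembled from the reads (orange) for 6 members, in the libraries labelled R, P and N. Gars lies wholly and Aars about 90% on assembled transcripts, and for Dars and Qars the division differs between all 3 libraries. For Cars it stands apart mainly in N, with 24.4% assembled against 46.3% in R and 43.9% in P. For Vars2 it stands apart in P, with 100% assembled against 55.6% in R and 54.4% in N.

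Among the 15 mitochondrial synthetases that reached 1 FPKM, Aars2, the enzyme for alanine, was the gene with the highest ratio for R/N. It had 4.60, 3.29 and 3.35 FPKM in the libraries labelled R, P and N, and was 1.37 times as high in R as in N (1.14 to 1.65) and 1.40 times as high as in P (1.16 to 1.68). The libraries labelled P and N were alike. Aars2 was also among the few mitochondrial genes whose interval lay above 1 in both comparisons with R, together with Iars2 and Vars2.

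Iars2, for isoleucine, had 16.2, 14.5 and 14.4 FPKM and a ratio of 1.12 for R/N (1.03 to 1.23). Vars2, for valine, had 7.84, 6.05 and 6.38 FPKM and ratios of 1.23 for R/N (1.11 to 1.36) and 1.30 for R/P (1.18 to 1.43). The value of Vars2 is uncertain, since in the library labelled P all of it, and in R and N 55.6% and 54.4%, lay on an assembled transcript that runs on into the neighbouring gene Gtf2h4. By its RefSeq transcript alone Vars2 had 3.49, 0 and 2.91 FPKM.

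Tars2, for threonine, had 6.85, 6.75 and 5.32 FPKM, and thus a ratio of 1.29 for R/N (1.09 to 1.52), 1.02 for R/P (0.87 to 1.18) and 1.27 for P/N (1.08 to 1.501). By the sum, R and P did not differ beyond counting error. Tars2 shares its locus with another gene, and an assembled transcript held 9.64%, 24.5% and 3.32% of its value. By RefSeq transcripts alone it had 6.19, 5.10 and 5.14 FPKM, so that P and N were nearly equal and R was highest. Sars2, for serine, had 3.42, 2.198 and 2.72 FPKM and was 1.56 times as high in R as in P (1.16 to 2.1004). It was the 1 mitochondrial gene at least 1.5-fold higher for R/P, its interval is wide, and it rested on 125 and 75 fragments. Mars2, for methionine, had 1.61, 1.14 and 1.21 FPKM and a ratio of 1.42 for R/P (1.01 to 2.005).

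The remaining mitochondrial genes showed no difference beyond counting error for either comparison with R. Cars2 (cysteine) had 4.42, 4.64 and 4.16 FPKM, Fars2 (phenylalanine) 7.33, 7.08 and 6.97, and Hars2 (histidine) 4.11, 4.04 and 4.02. Nars2 (asparagine) had 2.35, 2.35 and 2.22 FPKM, Pars2 (proline) 2.102, 1.91 and 2.205, and Rars2 (arginine) 2.95, 2.78 and 3.10. Wars2 (tryptophan) had 2.06, 1.91 and 2.09 FPKM and Yars2 (tyrosine) 4.94, 4.38 and 4.57. Ratios for R/N in these 8 genes ran from 0.95 in Rars2 to 1.08 in Yars2, and the intervals were wide, for Rars2 from 0.72 to 1.26. Ears2 had 0.91, 0.71 and 0.59 FPKM on 114, 82 and 69 fragments, with a ratio of 1.56 for R/N (1.14 to 2.13), and was left out of the counts because of its level.

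At 1.5-fold or more, 0 of 15 mitochondrial genes were higher or lower for R/N (7.91% and 4.52% of all genes), 1 was higher and 1 lower for R/P (9.13% and 5.33%), and 0 passed for P/N. The gene that was lower was Lars2, the enzyme for leucine and the highest mitochondrial gene, with 46.4, 70.1 and 52.3 FPKM in the libraries labelled R, P and N. Its ratios over the whole transcript were 0.66 for R/P (0.63 to 0.69), 0.89 for R/N (0.85 to 0.93) and 1.34 for P/N (1.29 to 1.40).

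Nearly all of the Lars2 value lay on its last exon. That exon, chr9:123461499-123462664 on the plus strand of GRCm38, holds 1166 bases, of which 989 are 3′ UTR in GENCODE. It had 145, 225 and 166 FPKM in the libraries labelled R, P and N, with 93.9%, 96.6% and 95.2% of the fragments, while the other 20 exons together had 4.03, 3.45 and 3.56 FPKM. Single exons among these 20 ran from 1.44 to 7.69 FPKM. On those 20 exons the ratio was 1.13 for R/N (0.92 to 1.39), 1.17 for R/P (0.95 to 1.45) and 0.97 for P/N (0.78 to 1.20), so that no library stood apart and the direction of the comparisons with R turned round. In that reading 0 mitochondrial genes were 1.5-fold lower for R/P, and Lars2 no longer counted among the genes below 0 for R/N and R/P. The mitochondrial median log2 ratios were then 0.11 for R/N and 0.13 for R/P. In the other 33 members with more than 1 exon, by the transcript with the highest mean, the top exon stood 1.20 to 11.4 times above the median of the others, the top value being Pars2 with 2 exons, but 49.7 times in Lars2. Why the last exon is so high was not tested.

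**Figure D4:**
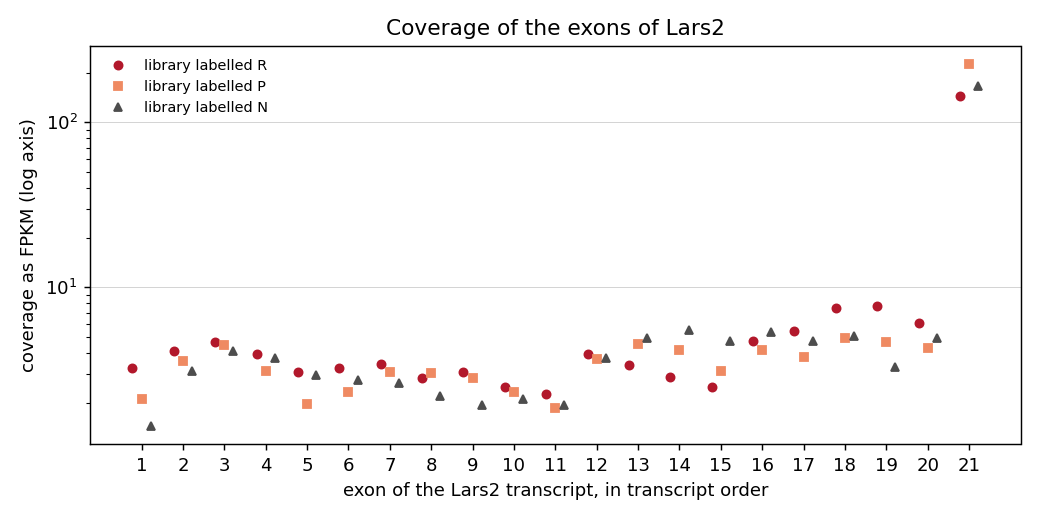
Coverage of each of the 21 exons of Lars2, expressed as FPKM on a log axis, in the libraries labelled R, P and N, with exons in transcript order. Exons 1 to 20 lie between 1.44 and 7.69 FPKM in all libraries, and exon 21 lies at 145, 225 and 166 FPKM.

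Lars2 also decided the summed level of the mitochondrial list. As deposited the sum was 118, 134 and 116 FPKM in the libraries labelled R, P and N, with Lars2 at 39.3%, 52.4% and 45.2% of it, and the ratio of the sums was 0.88 for R/P. With Lars2 read from its first 20 exons the sums were 75.7, 67.1 and 66.9 FPKM, and the ratio was 1.13 for R/P and 1.13 for R/N. The cytosolic sums stood at 1.253 for R/P and 1.24 for R/N. Cytosolic over mitochondrial sums came to 7.09, 4.99 and 5.86 as deposited and to 11.1, 9.95 and 10.1 with the first 20 exons. In either reading the library labelled R had the highest value.

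Among the cytosolic genes, 14 can be set beside a mitochondrial enzyme for the same amino acid, with Fars2 used for both Farsa and Farsb. The cytosolic gene had the higher log2 ratio in 12 of the 14 pairs for R/N, in 11 for R/P and in 5 for P/N, with median differences of 0.20, 0.22 and -0.035. Vars and Sars were the exceptions for R/N, at differences of -0.18 and -0.40, and Aars joined them for R/P, at -0.17. The pair furthest apart for R/P, as deposited, was Lars and Lars2, with a difference of 1.19, which rests on the last exon of Lars2.

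The cytosolic gene had the higher level in nearly all pairs. Its FPKM was 18.8, 16.3 and 16.6 times that of the mitochondrial gene for Nars in the libraries labelled R, P and N, and 14.7, 14.6 and 14.5 times for Mars. Levels of Iars and Iars2 were nearly equal, at 1.13, 1.11 and 0.93. Only for Lars was the mitochondrial gene clearly higher as deposited, at a level ratio of 0.26, 0.12 and 0.15.

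**Figure D5:**
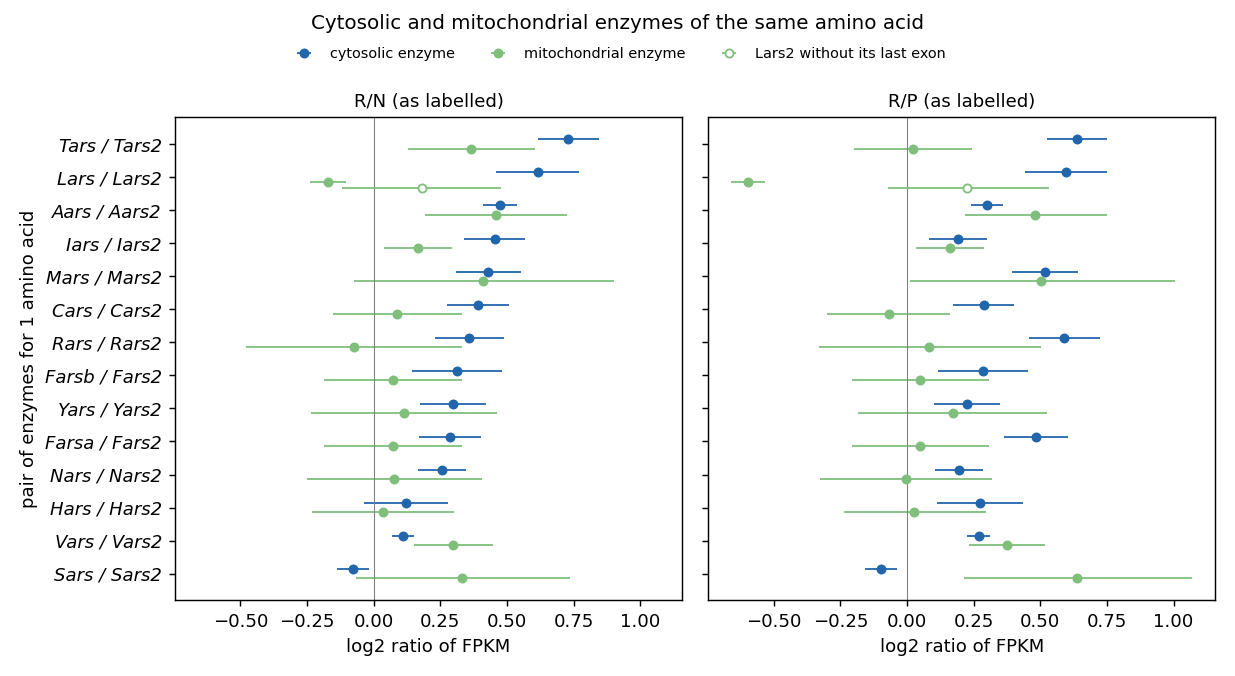
Log2 ratios of FPKM for the cytosolic (blue) and the mitochondrial (green) enzyme of 14 pairs, for R/N and R/P as labelled, ordered by the cytosolic ratio for R/N. Bars are exact 95% intervals for counting error only, and the open symbol is Lars2 from all exons but its last. The blue point lies to the right in 12 and 11 of 14 pairs, and many bars of a pair overlap.

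Wars, the cytosolic enzyme for tryptophan, is no member here and is known to be inducible by interferon. It had 26.0, 15.6 and 15.8 FPKM in the libraries labelled R, P and N, with ratios of 1.64 for R/N (1.501 to 1.79) and 1.66 for R/P (1.52 to 1.82), close to those of Tars.

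The 13 listed genes that work beside the mitochondrial enzymes, in tRNA modification, amidation, formylation and mitochondrial translation, had a median log2 ratio of 0.16 for R/N and 0.063 for R/P. For R/N, 2 were at least 1.5-fold higher and 0 lower, where 7.91% and 4.52% of all genes were. Qrsl1, the catalytic subunit that turns glutamate into glutamine on mitochondrial tRNA, had 2.93, 1.01 and 1.51 FPKM, with ratios of 1.93 for R/N (1.38 to 2.74) and 2.90 for R/P (1.98 to 4.35). Mtif2, a mitochondrial initiation factor, had 5.13, 4.45 and 3.34 FPKM and a ratio of 1.53 for R/N (1.26 to 1.87). Gatb, a partner subunit of Qrsl1, was the lowest, with 2.05, 2.72 and 2.26 FPKM and a ratio for R/N of 0.91 (0.67 to 1.22). Tufm, the mitochondrial elongation factor, had 28.0, 30.6 and 30.4 FPKM.

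Other ATF4 targets and stress genes outside the synthetases, in a list that also holds Atf4 itself, were split in direction. The 24 listed genes had a median log2 ratio of 0.035 for R/N and -0.041 for R/P. At least 1.5-fold, 4 were higher and 3 lower for R/N, where 7.91% and 4.52% of all genes were. For R/P, 3 were higher and 6 lower, where 9.13% and 5.33% of all genes were. Asns, asparagine synthetase, had 12.4, 6.42 and 4.20 FPKM, 2.94 times as much in R as in N (2.43 to 3.57). Mthfd2, a mitochondrial folate enzyme, had 8.48, 5.37 and 4.15 FPKM and a ratio of 2.04 for R/N (1.68 to 2.49). At the other end, Ddit4, a stress-induced inhibitor of mTORC1, had 189, 451 and 340 FPKM and a ratio of 0.55 for R/N (0.54 to 0.57). Nupr1, a stress-induced chromatin protein, had 211, 369 and 351 FPKM and a ratio of 0.60 (0.57 to 0.63). Atf4 itself had 64.8, 69.0 and 71.6 FPKM, lower in R by a ratio of 0.905 for R/N (0.85 to 0.96).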

How the data were processed

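The authors aligned reads with HISAT2 (2.2.0) and quantified RefSeq and assembled transcripts with StringTie, where the notes name version 2.1.3 and the headers 2.1.5. Coverage, FPKM and TPM were deposited for every transcript as the authors computed them. The notes name mm9, but 99.4% of 23147 symbols overlap their GRCm38 gene, so positions are GRCm38. Filters on reads: not given in the sources used here.

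FPKM was summed per symbol over RefSeq transcripts plus any assembled ones within its StringTie gene, since by RefSeq alone Gars is listed at 0. Assembled transcripts in no gene held 10.6%, 12.2% and 12.1% of FPKM in the libraries labelled R, P and N. Farsa, Hars, Tars2 and Vars2 share a locus with another symbol, which makes their values less certain. Fragments are aligned bases over the 300 bases of a read pair, and intervals are exact at 95% (Poisson on FPKM, Clopper-Pearson on ratios). With 1 library per condition no test was run. Ratios use a pseudocount of 0.1 FPKM where log2, which understates differences of low genes, and lists hold genes with at least 1 FPKM in at least 1 library. Exon values are deposited coverage over aligned bases.

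Members, gene lists and markers were chosen with earlier results of these data known. The rule for named genes accounts for all 35 members, with full values for the 8 highest and 8 lowest log2 ratios for R/N or R/P, for members at least 1.5-fold apart and for the highest of each group, and takes the 2 highest and 2 lowest of other lists. The members, the scaffold genes and Atf4 beyond that were named after their values were seen, as was the exon comparison of Lars2. Simulated fragments were drawn with Poisson counting error only, the same model as the intervals. The draws hold no variation between cultures or libraries and so give no error rate for these data. For R/N, R/P and P/N, 99, 100 and 98 of 100 genes changed 2-fold passed 1.5-fold. Of 11123 unchanged genes 189, 157 and 159 did, and 95.8%, 95.6% and 95.5% of intervals covered the true ratio. Alternatives were TPM, pseudocounts of 1 and 0.01, rescaling, other choices of transcripts, other minimums, unshared loci, N and P exchanged, and Lars2 without its last exon. Software was Python 3.11.15 with SciPy 1.17.1, NumPy 2.4.6, pandas 2.3.3 and, for figures, Matplotlib 3.10.9.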

Additional observations from a re-analysis of the deposited data

How the results depend on the processing

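Over the alternatives other than the exchange of N and P, the median log2 ratio of cytosolic genes ran from 0.29 to 0.41 for R/N (reported 0.36), from 0.25 to 0.29 for R/P (0.28) and from 0.0029 to 0.067 for P/N (0.022). That of mitochondrial genes ran from 0.038 to 0.17 for R/N (0.087), from 0.050 to 0.15 for R/P (0.11) and from -0.043 to 0.022 for P/N (-0.023), whose sign turned with TPM and with a minimum of 5 FPKM. Of 69 counts of members at least 1.5-fold apart, higher and lower together, 55 stayed within 1.5 times the reported count. Within these counts the cytosolic R/N split of 5 higher and 0 lower became 4 and 1 with RefSeq transcripts only and 5 and 1 with the transcript of the highest mean. By that transcript the cytosolic R/P split of 4 and 0 became 5 and 1, and the mitochondrial one of 1 and 1 became 1 and 2. For cytosolic genes, R/N went to 3 (reported 5) and R/P to 2 (reported 4), in each case with a pseudocount of 1 and with rescaling by the median ratio of 7227 genes (1.035 for R and 1.013 for P), and P/N went to 4 with the transcript of the highest mean and 1 with RefSeq transcripts only (reported 0). For mitochondrial genes, P/N went to 2 with the transcript of the highest mean and to 1 with RefSeq transcripts only and with assembled transcripts only where the locus holds 1 symbol (reported 0). With N and P exchanged, R/N went to 2 (reported 0) and R/P to 0 (reported 2), as the exchange implies. R/P went to 1 (reported 2) with a pseudocount of 1, with a minimum of 5 FPKM, which leaves 5 mitochondrial members, and with Lars2 read without its last exon, a setting added once the data had been seen. The cause was not tested for the others. No paired analysis was possible because each condition has 1 library. Depth limits the lowest mitochondrial genes most, such as Mars2 with 89, 59 and 62 fragments in the libraries labelled R, P and N.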
